A study of Mus musculus with 4 samples.

Results

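The cells described here are progenitors, most of them myogenic by marker, placed by their RNA at the boundary between the G1 and S phases. They are 429 of 6025 eligible cells among 16519 barcodes in 4 single-cell libraries. They were chosen by their own RNA, and the names of cell cycle phases used here rest on RNA alone. An eligible cell had at least 5000 unique molecular identifiers (UMIs, 1 per captured RNA molecule), at least 1000 genes, at most 10% mitochondrial UMIs, no Cd74 UMI and fewer than 2 Myog UMIs per 10000. Members lay in the top 10% of eligible cells, all libraries pooled, for the summed level of Mcm3, Mcm4, Mcm5, Mcm6, Hells, Uhrf1 and Ung (score A). Cells in the top 10% for 6 histone genes (score B: H1f5, H2ac8, H2ac4, H2ac24, H3c3 and H1f1) or for 7 mitotic genes (score C: Cenpf, Cdc20, Ccnb1, Ube2c, Hmmr, Tpx2 and Aspm) were left out.

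The cells had been sorted by flow cytometry (α7-integrin+, CD45-, CD31-, Sca1-) from tibialis anterior muscles of 12-week-old mice on day 6 after cardiotoxin, a snake venom protein that kills myofibres, had been injected. All mice carried Pax7Cre, the recombinase driven by the Pax7 promoter, which is not inducible and is active in muscle stem cells and their descendants. Pax7Cre controls were compared with Pax7Cre miR-501fl/Y mice (miR-501KO), in which the floxed precursor of miR-501 is deleted by the recombinase. Each group had 2 libraries, 1 from each of 2 independent experiments (run 1 and run 2), and each library pooled 3 mice. The individual mouse cannot be recovered from a pool, so the library was the replicate and p-values measure only the spread between libraries.

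Before a cell copies its DNA, the MCM helicase is loaded onto origins in G1, a step called licensing that needs the ORC complex, Cdc6 and Cdt1. Cyclin D and then cyclin E kinases inactivate the retinoblastoma proteins, which releases E2F transcription factors, and these switch on the genes for helicase, polymerases, nucleotide supply and cyclin E itself. Histone genes follow as replication proceeds, and the genes of mitosis are switched on later, many of them through a promoter element named CHR. In injured muscle, satellite cells leave quiescence, pass this boundary many times as Pax7+, Myf5+ or Myod1+ progenitors, and then exit the cycle to differentiate and fuse.

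The promoters are shown because the genes of score A are textbook E2F genes and the members were set apart by these transcripts. Windows from 250 bases before to 50 bases after the gene start were taken from RefSeq (GRCm38.p6, another build than the GRCm39 that the submitters' processing notes name), and were searched on both strands for TTTGGCGC, TTTCCCGC, TTTCGCGC and TTTGCCGC. Such letters were found in 5 of the 6 score A genes with a window (83.3%), against 704 of 27025 genes with a window (2.61%). None of the 6 windows each of the histone score and the mitotic score held them. Stretches around the first match in those 5 genes are given 5′ to 3′ on the gene's own strand, with that match in capitals. A match on the other strand reads as its reverse complement. The Mcm3 and Mcm5 windows hold 2 matches and the Mcm6 window 3, and later matches within a stretch are left in lower case.
Mcm3, chr1:20820263-20820319, minus strand: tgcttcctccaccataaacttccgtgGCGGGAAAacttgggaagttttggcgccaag
Mcm5, chr8:75109330-75109389, plus strand: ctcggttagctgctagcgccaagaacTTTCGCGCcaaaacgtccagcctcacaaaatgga
Mcm6, chr1:128359782-128359841, minus strand: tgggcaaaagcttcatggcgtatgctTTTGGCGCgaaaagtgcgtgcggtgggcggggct
Hells, chr19:38930902-38930961, plus strand: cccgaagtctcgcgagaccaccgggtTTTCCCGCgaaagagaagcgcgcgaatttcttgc
Uhrf1, chr17:56304102-56304161, plus strand: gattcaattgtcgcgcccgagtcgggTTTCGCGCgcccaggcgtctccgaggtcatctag

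Genes outside the scores that stood highest in the members, described further on, are shown for the same reason. Of the 20 highest, 16 had a window and 5 of these (31.2%) held the letters. Again only the first match is in capitals, and the Zfp367 window shown holds 2.
Clspn, chr4:126556975-126557029, plus strand: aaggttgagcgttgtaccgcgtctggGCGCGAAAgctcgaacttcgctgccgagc
Cdc6, chr11:98907987-98908046, plus strand: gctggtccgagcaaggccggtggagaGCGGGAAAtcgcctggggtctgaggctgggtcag
Dtl, chr1:191575519-191575578, minus strand: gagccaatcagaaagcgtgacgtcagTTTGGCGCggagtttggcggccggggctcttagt
Zfp367, chr13:64153185-64153244, minus strand: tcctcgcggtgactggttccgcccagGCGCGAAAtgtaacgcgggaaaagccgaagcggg
Lig1, chr7:13278826-13278875, plus strand: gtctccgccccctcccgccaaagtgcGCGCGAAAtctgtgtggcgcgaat

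By list, the letters lay in 8 of 18 licensing and firing genes with a window (44.4%), 8 of 21 G1/S regulators (38.1%), 8 of 28 fork and polymerase genes (28.6%), 10 of 48 replication-dependent histone genes outside the score (20.8%), 3 of 38 genes of G2 and mitosis (7.89%) and 1 of 21 nucleotide supply genes (4.76%). The CHR letters TTTGAA, on either strand, lay in 20.2% of all windows. They lay in 28 of 38 genes of G2 and mitosis (73.7%), 5 of 6 genes of the mitotic score, 4 of 6 of the histone score, 20 of 48 other histone genes (41.7%), 8 of 21 G1/S regulators (38.1%), 5 of 18 licensing genes (27.8%), 3 of 28 fork genes (10.7%) and 2 of 21 nucleotide supply genes (9.52%). None of the 6 score A windows and none of the 16 windows of the 20 highest genes held them. A match describes the letters in a window and is no evidence of binding.

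The label was first checked against the markers. Score A had a median of 13.3 UMIs per 10000 in members and 0.720 in the other progenitors, defined here as the 4118 eligible cells in no top set and with most lineage-marker UMIs from a myogenic list. The cut fell at 9.37, with the nearest cells at 9.371 inside and 9.365 outside; 54 members (12.6%) lay within 10% above it and 66 cells within 10% below it, so the set is a range of a continuous score. All 7 score A genes were detected in 366 members (85.3%), and no member had fewer than 4. No single gene carried the score, since Hells gave 19% of its UMIs, Mcm3 18.9%, Mcm6 18.7% and Ung, the uracil-DNA glycosylase, 6.25%. After thinning each cell to 5000 UMIs, Mcm3 was found in 72.7% of members and 11.3% of the other progenitors. These values follow from the choice of the cells and are given as a description.

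Members were myogenic by their markers. At least 1 UMI of Pax7, Myod1 or Myf5 was found in 410 of 429 (95.6%), and the myogenic list held most marker UMIs in 408. The others were 11 cells with most marker UMIs from the mural list (7 and 4 in the run 1 libraries of Pax7Cre and miR-501KO, none in run 2), 9 from the Schwann list (2, 1, 1 and 5 in Pax7Cre replicates 1 and 2 and miR-501KO replicates 1 and 2) and 1 from the macrophage list (Pax7Cre replicate 2). That order of libraries is kept wherever 4 values are listed. Summed mural genes accordingly stood at 549, 152, 1029.5 and 118 counts per 1000000 UMIs (CPM) in members, against 200 to 260 in the other progenitors. Members held a median of 35010 to 39348 UMIs per library, above the other progenitors (25058 to 31318) and below cells high in the histone score alone (43270 to 59045) or the mitotic score alone (45413 to 53058). Doublets were gated out at the authors' sort, and doublets formed in droplets were not called; 2 member barcodes also occurred in another library, as did 20 of the 10450 cells past the UMI and gene minimum.

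Values are sums over the cells of a set in a library, in CPM. The members were set beside 3 groups: the 276 cells in the top of the histone score alone (S), the 437 in the top of the mitotic score alone (G2/M) and the other progenitors. Because the scores chose all of these sets, the differences are described without a test. A gene was counted as higher or lower where its ratio was at least 1.5-fold in each of the 4 libraries, on log2(CPM + 1), among genes averaging at least 5 CPM over both sets and outside the scores.

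The genes for cyclin E2, E2F1 and Cdc6 stood higher in members than in all 3 other sets. Ccne2, the cyclin that drives S-phase entry, stood at 80.2, 82.7, 64.0 and 91.7 CPM in members, 4.28 to 9.08 in the other progenitors and 45.9 to 59.7 in S. It was nearly absent again in G2/M, at 3.44 to 6.20. No library of the members overlapped any library of another set. Its mean ratio to the other progenitors was 10.5-fold and to G2/M 13.5-fold.

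E2f1 followed the same course, at 83.9, 90.5, 80.2 and 76.4 CPM in members, 34.3 to 39.9 in S, 7.10 to 8.55 in G2/M and 7.17 to 12.7 in the other progenitors. Cdc6, the licensing factor that loads the MCM ring, stood at 42.1, 53.8, 40.1 and 46.9 in members and 18.1 to 18.8 in S. In G2/M (2.79 to 4.41) and in the other progenitors (2.26 to 4.17) it was about equally low. The members' libraries lay above all libraries of the other 3 sets for both genes. Ccnd1, the cyclin of early G1, was less set apart, with 143, 175, 242 and 211 in members and 74.5 to 104 in the other progenitors; in G2/M (86.6 to 157) it overlapped with the members.

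**Figure D1:**
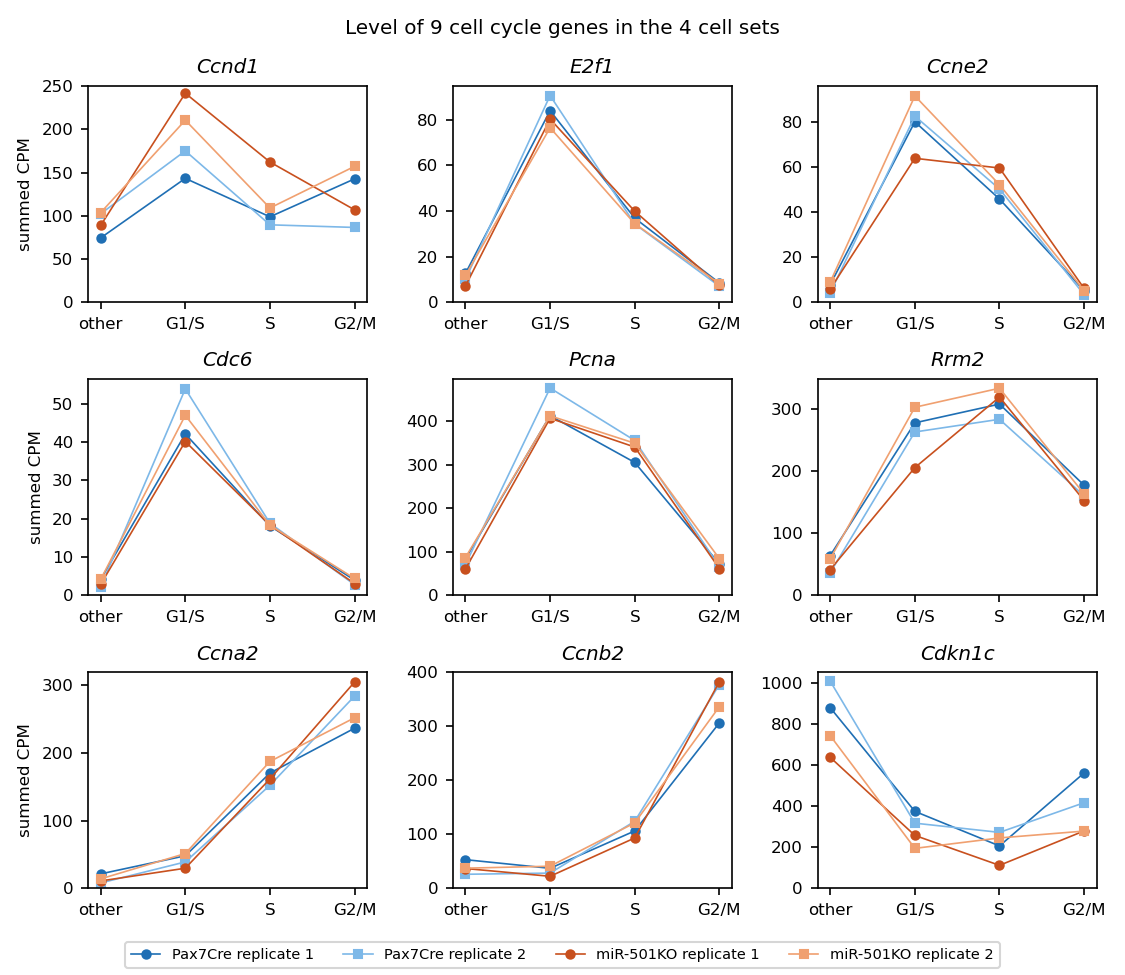
Summed CPM (vertical axes from 0) of 9 cell cycle genes in the other progenitors, G1/S, S and G2/M cells, with 1 line per library joining the sets. Ccne2, E2f1 and Cdc6 peak in the G1/S cells in all 4 libraries, Rrm2 is as high or higher in S, Ccna2 and Ccnb2 are highest in G2/M, and Cdkn1c is highest in the other progenitors.

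Against the other progenitors, 542 of 9557 genes were higher (5.67%) and 127 lower (1.33%), and the genes of DNA replication were higher almost without exception. Of the licensing and firing list, 20 of 23 measured genes were higher, with a median log2 ratio of 2.08 ± 0.105 (SD over libraries, n = 4) beside -0.05 for all genes. The 3 that were not were the origin recognition genes Orc3, Orc4 and Orc5. Orc4 had 35.7, 32.7, 42.7 and 36.8 CPM in members and a mean of 39.2 in the other progenitors, whereas Orc1, the regulated subunit, had 8.48, 14.5, 12.1 and 11.2 beside a mean of 1.14. Mcm2, of the same helicase as the score genes, had 93.9, 114, 93.5 and 93.7 beside 13.1 to 18.9. Cdt1, which loads the helicase, and geminin (Gmnn), which inhibits Cdt1, were both higher in the members: Cdt1 averaged 14.3 in the other progenitors and 73.7 to 92.7 in members, Gmnn 15.6 and 105 to 143.

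All 35 fork and polymerase genes were higher, with a median log2 ratio of 2.13 ± 0.280. Pcna, the sliding clamp, stood at 412, 476, 406 and 412 CPM in members and 60.8 to 86.9 in the other progenitors. Clspn, which carries the checkpoint signal at stalled forks, stood at 150, 147, 120 and 134 against 8.06 to 16.5. Lig1, the ligase of the lagging strand, had a mean ratio of 8.15-fold and Chaf1b, a subunit of the histone chaperone CAF-1, of 9.50-fold. The smallest ratio in the list was a log2 value of 1.02.

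Nucleotide supply was higher in 18 of 23 genes, with a smaller median log2 ratio of 1.26 ± 0.140. Among the genes of deoxynucleotide synthesis, Tk1 stood at 69.5 to 117 CPM in members and 9.62 to 24.2 in the other progenitors, and Rrm2 at 206 to 303 and 36.7 to 64.3. All 23 genes were above the other progenitors in each library, as were 2665 of all 9557 genes (27.9%), and Adsl, Cad, Gmps, Nme1 and Pfas, which serve nucleotide synthesis in general, missed the 1.5-fold rule.

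DNA repair and checkpoint genes were higher in 18 of 22 measured, at a median log2 ratio of 2.28 ± 0.242. Exo1, an exonuclease of mismatch repair and end resection, had 29.8, 39.6, 30.5 and 28.2 CPM in members and 1.40 to 2.82 in the other progenitors, a mean ratio of 10.8-fold. Brca1 reached 11.3-fold and Brip1 9.93-fold. Atr, the kinase at the head of the replication checkpoint, did not differ in this way, with 18.8, 14.7, 17.7 and 11.8 beside a mean of 14.6; its effector kinase Chek1 had 37.4, 45.5, 36.1 and 40.9 beside 5.57.

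Regulators of the transition were split by role. Of 28 measured, 18 were higher, at a median log2 ratio of 1.16 ± 0.0676. The activator genes E2f1, E2f2 and E2f3 and the repressors E2f7 and E2f8 were all higher, E2f1 by 7.45-fold. E2f4 and E2f5, the repressors of resting cells, were not: E2f4 had 30.0, 26.8, 24.7 and 30.1 CPM in members beside a mean of 26. Of the pocket protein genes, Rbl1 (p107) had 33.6, 39.4, 40.5 and 32.1 beside 6.94, while Rbl2 (p130) had 13.3, 15, 14.4 and 9.04 beside 18. Ccne1 was higher in each library (93.5 to 107 against 28.8 to 38.4). Myc was lower in each, at 54.0, 65.3, 82.1 and 74.3 against 79.2 to 102, short of 1.5-fold.

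Among the 127 lower genes were genes of cell cycle exit and of differentiated muscle, and most of the 127 were in none of these lists. Of 12 genes for CDK inhibitors and exit, 3 were lower and none higher. Cdkn1c (p57), a CDK inhibitor of differentiating progenitors, stood at 376, 318, 258 and 195 CPM in members and 881, 1010.1, 639 and 744 in the other progenitors, a mean ratio of 0.346. The libraries of the 2 sets did not overlap, and in both sets the miR-501KO libraries were below the Pax7Cre libraries. The others were Trp53inp1 (mean 21.3 in the other progenitors, 5.38 to 11 in members) and Ccng2 (mean 36.5 and 15.3 to 17.7). Cdkn1a (p21) and Cdkn2c (p18) were slightly above the other progenitors in each library, Cdkn2c by log2 values of 0.35 to 0.78.

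Of 8 measured myofibre genes, 5 were lower, and of 12 committed genes, 4. The size rested on how much of this RNA the other progenitors of a library held. Myl1, a myosin light chain, stood at 35.3, 60.8, 55.6 and 35.1 CPM in members, while the other progenitors held 163, 1421, 998 and 368. The members were alike in all 4 libraries and the comparison cells differed by library. The median log2 ratio of the myofibre list therefore ran from -4.29 to -0.85. In droplet data such abundant muscle RNA can also be free RNA, and its part was not tested.

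Progenitor identity genes were close to the other progenitors. None of the 12 myogenic genes passed the 1.5-fold rule in either direction, and 10 were lower in each library, as were 3229 of all 9557 genes (33.8%), at a median log2 ratio of -0.41 ± 0.129. Pax7 stood at 93.4, 139, 111 and 88.9 CPM in members and 126 to 152 in the other progenitors. Myod1, the determination factor of activated cells, was the one gene higher in each library, at 52.8, 65.6, 89.0 and 62.7 against 39.0 to 48.8. A UMI of both Pax7 and Myod1 was found in 37.3% of members, 26.6% of other progenitors and 54.0% of S cells, without thinning to a common depth. Of 18 genes of Notch signalling and quiescence, 12 were lower in each library (33.8% of all genes), 1 of them by the rule: Gas6, with 2.88, 4.55, 2.94 and 4.52 beside a mean of 10.7. Ribosome biogenesis was higher in each library for 31 of 35 genes (27.9% of all genes) but by the 1.5-fold rule in 4, Nop56, Nolc1, Dkc1 and Pa2g4.

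Genes of later phases also stood above the other progenitors. Of 39 measured genes of G2 and mitosis, 27 were higher than in the other progenitors, at a median log2 ratio of 1.27 ± 0.395. Ccna2, the cyclin of S and G2, had 48.1, 39.1, 29.8 and 51.5 CPM in members, 8.06 to 21.5 in the other progenitors and 236 to 305 in G2/M. Ccnb2 and Cenpa did not share in this: Ccnb2 had 22.4 to 41.1 in members and 26.2 to 53.2 in the other progenitors. With members taken from the top 5% of each score, the median of the list was 0.46, so its size depends on the cut.

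**Figure D2:**
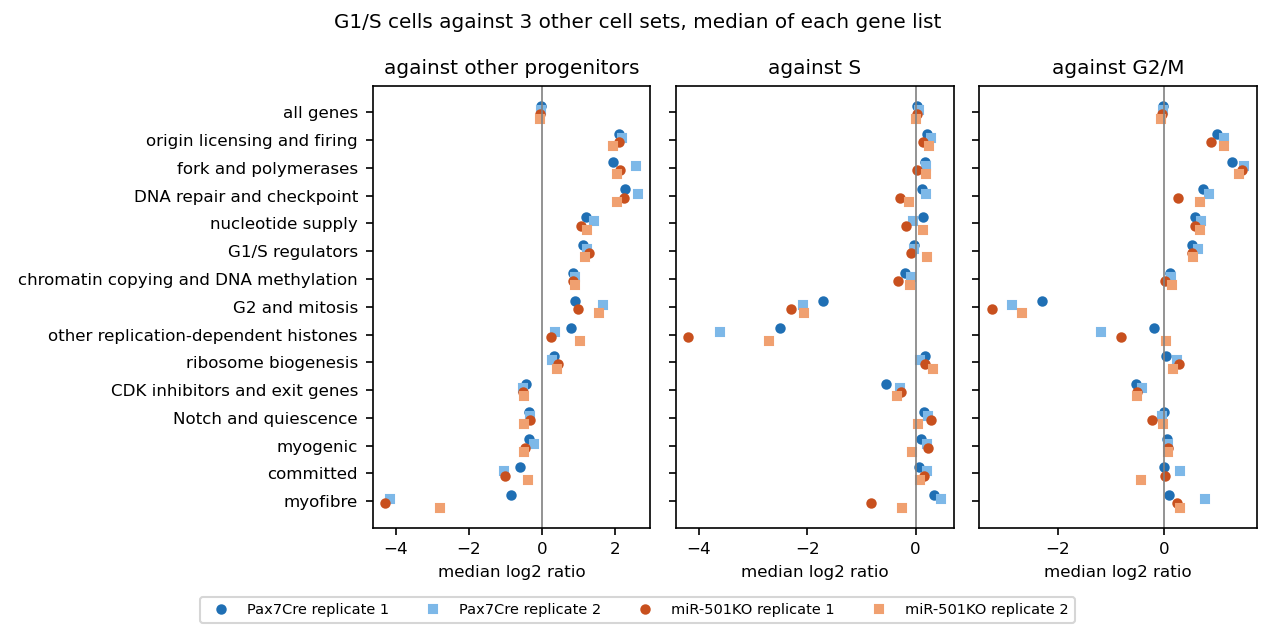
Median log2 ratio (horizontal axes) of G1/S cells to the other progenitors, S cells and G2/M cells for 14 gene lists and for all genes, with 1 point per library. Fork and licensing genes lie near 2 against the other progenitors and near 0 against S, and the G2 and mitosis list lies above 0 against the other progenitors and below it against S and G2/M in all 4 libraries.

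Set beside S cells, the members were lower in nearly all histone and mitotic genes measured. Of 9481 genes, 64 were higher in members (0.675%) and 195 lower (2.06%). Of 32 measured replication-dependent histone genes outside the rule, 31 were lower, at a median log2 ratio of -3.20 ± 0.788. From the same list, 15 genes were measured against G2/M and 10 against the other progenitors. A gene counted as measured by its average over both sets, and S cells were chosen for histone RNA. Genes that passed only through S were bound to average lower in members, so the 31 were partly fixed in advance. How many genes passed in this way was not counted. H4c4, a histone H4 gene, had 103, 26.5, 76.2 and 46.5 CPM in members and 671, 412, 1047 and 308 in S. These genes are near-identical copies with mostly non-polyadenylated RNA, so reads may be shared between them. Of the G2 and mitosis list, 43 of 44 were lower, at -2.01 ± 0.248.

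Fork genes were nearly the same in members and S cells, with 4 of 35 higher, none lower and a median log2 ratio of 0.18 ± 0.0766. The genes above S were mainly those of the step before replication. Cdc6 was 2.40-fold, E2f1 2.24-fold and Mcm2 2.01-fold the level in S. Alkbh2, a DNA alkylation repair enzyme, came first among genes at 20 or more CPM, with 24.4, 24.1, 34.6 and 26.5 CPM in members and 3.33 to 4.15 in S, a mean of 5.78-fold. It also lay above the other progenitors (6.47 to 9.46) and G2/M (3.44 to 5.89) in all libraries. Cdca7, a partner of Hells, was 3.01-fold. Cebpd was higher than in S in each library (199 to 242 against 77.0 to 111) but below the other progenitors (251 to 315). Among repair genes, Neil3, a glycosylase, was lower in members, with 9.57 to 20.7 against 60.6 to 68.9 in S. Fbxo5 (Emi1), the inhibitor of the APC/C, was at 17.7 to 48.0 against 109 to 129.

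Against G2/M cells, 225 of 9500 genes were higher (2.37%) and 324 lower (3.41%). All 44 genes of G2 and mitosis were lower, at a median log2 ratio of -2.76 ± 0.395. Cenpa, the centromeric histone, had 27.3 to 54.3 CPM in members and 562 to 643 in G2/M. Of the fork list 28 of 35 were higher, and of the licensing list 14 of 23. Dbf4, the activator of the Cdc7 kinase, was the one licensing and firing gene lower in members, with 36.4 to 43.3 and a mean of 145 in G2/M.

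The course of these genes was also followed across score A itself, over cells with most marker UMIs from the myogenic list and in neither other top set. The 8 bins ran from 887 cells without a score A UMI to the lower and upper 204 members. Fork genes together went from 460 ± 12.7 CPM (SD, n = 4 libraries) in the first bin to 2069 just below the cut, 2804 in lower members and 3922 in upper members, with no step at the cut. Cdc6 and Ccne2 stayed near 0 until late. Ccne2 had 2.0 ± 1.23 in cells without score A, 6.42 at scores over 2 to 4, 44.2 just below the cut and 86.8 in upper members. Ccnd1 climbed more gradually, with 66.3 in cells without score A, 131 at scores over 2 to 4, 176 just below the cut, 179 in lower and 171 in upper members; the SDs in members were 41.8 and 81.4. CDK inhibitor and exit genes together went from 2433 to 1162 in lower members and 1374 in upper members. Committed genes were high and variable in the lowest bins (5013 ± 2630.4) and 678 to 894 in members. Pax7 was 161 in the first bin, 88.3 just below the cut and 131 in upper members. Median depth differed between bins, from 22101 UMIs in the first to 39200 in lower members, and the bins were made from score A, so the course is a description.

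**Figure D3:**
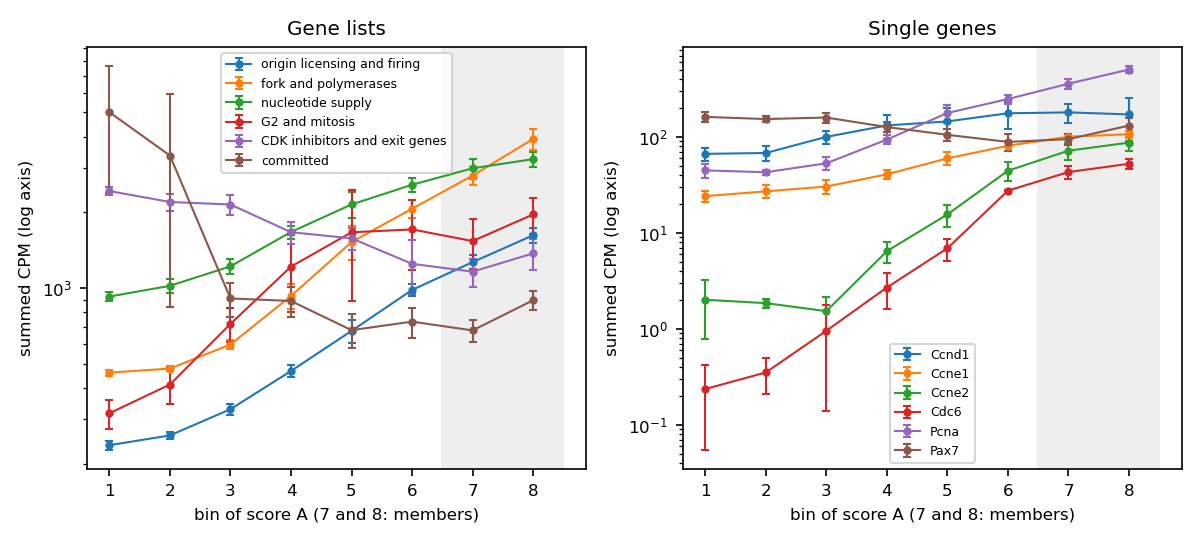
Mean summed CPM (log axes) with SD over 4 libraries in 8 bins of score A for 6 gene lists (left) and 6 genes (right); bins 7 and 8, shaded, are the members. Fork and licensing genes climb through all later bins, Ccne2 and Cdc6 climb from bin 4 on, and CDK inhibitor and committed genes decline before the members are reached.

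The genotypes were then compared in shares. Members made up 7.75% (163 of 2104), 7.17% (86 of 1199), 5.28% (64 of 1212) and 7.68% (116 of 1510) of eligible cells. The means were 7.46% ± 0.287 in Pax7Cre and 6.48% ± 1.20 in miR-501KO (SEM, n = 2). The difference of -0.98 points gave p = 0.667 in an exact two-sided permutation test, in which 2 libraries against 2 cannot go below 0.33. At this cut the lower mean came from 1 library. In run 1, miR-501KO replicate 1 was 2.47 points below its control, and in run 2, miR-501KO replicate 2 was 0.509 points above its control. Without miR-501KO replicate 1 the difference was 0.222 points in the other direction. With the top 5% of each score, however, miR-501KO was below its control in both runs (-1.15 points in run 1 and -1.43 in run 2). Among cells kept out because of Cd74, 6.58%, 5.69%, 1.38% and 4.81% had scores of a member. The lowest was again miR-501KO replicate 1, where the Cd74 limit kept out 1017 cells, against 187 to 319 in the other libraries.

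**Figure D4:**
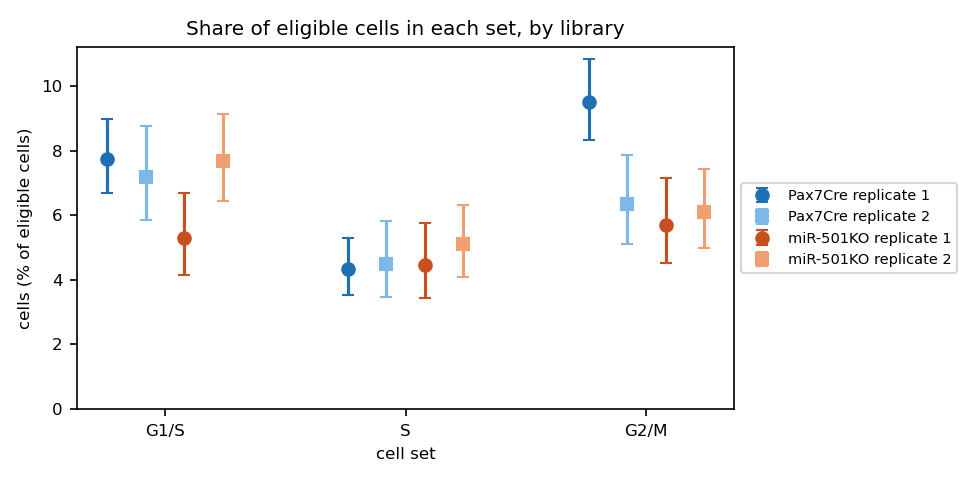
Share of eligible cells (percent, axis from 0) in the G1/S, S and G2/M sets for each library, with 95% Wilson intervals that cover counting error only. The G1/S share of miR-501KO replicate 1 is 5.28% and the other 3 libraries lie between 7.17% and 7.75%.

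In the members' expression no gene passed between genotypes. Of 11003 genes tested with edgeR's quasi-likelihood test on the 4 library sums, 0 were called (0%) at a Benjamini-Hochberg adjusted p under 0.05, while 254 had an unadjusted p under 0.05. In simulated counts of the same depth, this test found 47% of genes changed by 2-fold and 99% of genes changed by 4-fold, so smaller differences were below what 2 libraries can show. The run numbers mark shared experiments; with the run as a block, 10 genes were called (0.0909%), all higher in miR-501KO, among them Prnp, Procr, Art3, Kcna1, Erbb3, Slitrk6, Il33, L1cam and the score B histone H2ac24. DESeq2 called Prnp and H2ac24. Because the rule used H2ac24 to leave cells out, its calls here and below are not read as a difference between genotypes.

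Of the 10, 2 belong to the marker list of Schwann cells, the glia of peripheral nerve. One is Kcna1, a potassium channel gene, which stood at 0.757, 4.55, 8.09 and 13.1 CPM in all members and at 0, 0, 0 and 1.11 in the 408 that were myogenic by marker. Erbb3, the neuregulin receptor, stood at 1.21, 1.61, 4.78 and 13.3 CPM in all members and at 0, 0.545, 0.799 and 2.66 in the myogenic ones. L1cam went from 1.36, 1.87, 11.4 and 6.89 to 0.318, 0.273, 0 and 0.443. Prnp kept much of its level in Pax7Cre (17.9 and 20.1 in all members, 14.6 and 12.5 in myogenic ones) and less in miR-501KO (92.0 and 42.6, then 17.6 and 18.2). Procr, the endothelial protein C receptor, had 11.4, 0.536, 66.6 and 0.646 in all members and 0.478, 0.545, 0 and 0.664 in myogenic ones. It was high in the run 1 libraries alone, which hold all 11 mural-marker members. Summed Schwann markers stood at 33.3, 27.3, 52.6 and 102 in all members. The macrophage-marker cell of Pax7Cre replicate 2 left a similar trace, with macrophage markers at 233 there and 15.7 to 26.5 in the other libraries. In the myogenic members alone, edgeR called 0 genes without and 3 with the block: H2ac24, Il33 and Apod. Il33, an alarmin cytokine, had 4.78, 2.73, 33.9 and 12.2 CPM there, and the other progenitors of the same libraries had 4.08, 3.96, 31.2 and 7.43. Apod rested on miR-501KO replicate 2, at 64.9 beside 3.98 to 8.78.

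The 5 smallest p-values without the block belonged to H2ac24, Slitrk6, Prnp, Hbegf and Ankrd1, and none passed. Hbegf, a growth factor of the EGF family, had 29.1, 34.8, 58.5 and 69.1 CPM in members (log2 fold change 1.02 ± 0.176 SE, edgeR adjusted p = 0.582). Ankrd1, a stress-responsive muscle ankyrin repeat protein, had 62.4, 59.2, 106 and 116 (0.87 ± 0.152 SE, edgeR adjusted p = 0.582). Both miR-501KO libraries lay above both Pax7Cre libraries for each, also in the myogenic members alone (Hbegf 57.1 and 64.9 against 25.6 and 34.4). Both genes were picked by their p-values in these same libraries, and the myogenic members are 408 of the 429 members. The separation is therefore given as a description and is no further support. In the other progenitors Hbegf overlapped between genotypes, at 44.3 and 53.1 in Pax7Cre and 40.1 and 61.4 in miR-501KO. Slitrk6 had 0 UMIs in Pax7Cre members and 28 in miR-501KO members, at least 13.1-fold higher taking 3 UMIs over the control group as the floor. All but a trace of it was in cells not myogenic by marker. H2ac24, given as a description because the rule used it, had 91.9, 90.5, 177 and 233 in members.

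**Figure D5:**
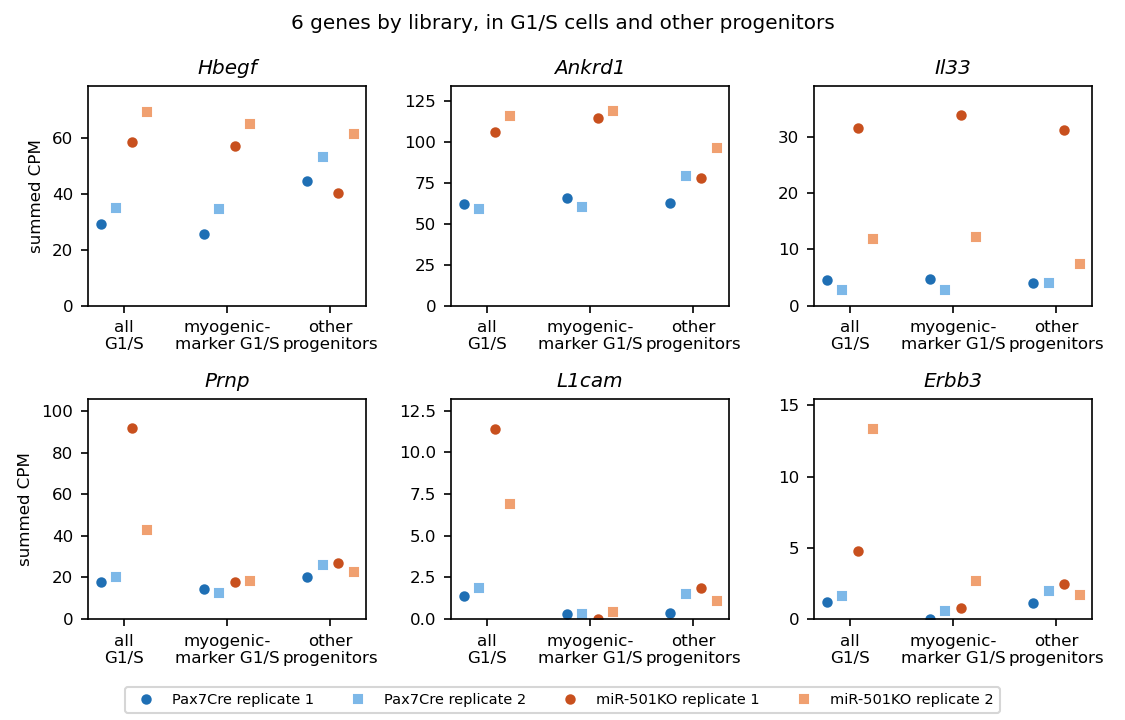
Summed CPM (vertical axes from 0) of 6 genes in all G1/S cells, in G1/S cells that are myogenic by marker and in the other progenitors, with 1 point per library. Hbegf and Ankrd1, picked by their small p-values in these libraries, are higher in both miR-501KO libraries in both groups of G1/S cells. Prnp, L1cam and Erbb3 drop to a few CPM or to the level of the controls once the other cells are left out.

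The replication programme itself showed no called gene between genotypes in any list: 0 of 24 licensing genes, 0 of 35 fork genes, 0 of 29 G1/S regulators and 0 of 27 repair genes, without or with the block. Median log2 fold changes were -0.11 for licensing, -0.15 for fork, -0.00082 for the regulators and -0.23 for repair genes, beside 0.0011 for all genes tested. Ccne2 had a log2 fold change of -0.05 ± 0.195 SE and Cdc6 of -0.12 ± 0.182 SE, with an edgeR adjusted p of 0.999 for both. Ccnd1 had 143, 175, 242 and 211 CPM (0.50 ± 0.153 SE) and Cdkn1c a log2 fold change of -0.63 ± 0.173 SE, again with an edgeR adjusted p of 0.999 for both.

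The deleted miRNA cannot be read from these polyadenylated gene counts, so the genotype was not checked on it. Its 3p arm is shown with the seed, bases 2 to 8, in capitals because the groups differ by this locus (RefSeq, GRCm38.p6, minus strand, chrX:7241270-7241291).
mmu-miR-501-3p: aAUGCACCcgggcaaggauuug
Clcn5, its host gene, had 134, 163, 173 and 134 CPM in members (log2 fold change 0.04 ± 0.165 SE, edgeR adjusted p = 0.999; leaving out each library in turn gave -0.11 to 0.19). Esrrg, which the study names as a target, had 0 UMIs in all 4 sums of members, which together hold 17702716 UMIs and allow up to 0.169 CPM.

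Whether the genotype acted otherwise in members than in the other progenitors was tested as an interaction over 8 sums with the library as a block. Of 13505 genes, 0 were called (0%), with 526 at an unadjusted p under 0.05 and 0 called by DESeq2. Simulated interactions were found in 13.5% of genes at 2-fold and 94.5% at 4-fold, so only large differences could have been seen. The median interaction (log2) was -0.0034 over all genes tested, -0.05 for licensing, -0.01 for fork genes and 0.10 for the regulators.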

How the data were processed

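Chromium 3′ libraries of sorted cells were counted by the authors with Cell Ranger (6.0.2 per the file headers, another version than the study names) against GRCm39 per the submitters' processing notes, and raw UMI counts per gene and barcode (25827 genes) were deposited. Seurat is named in those notes; no filter of the authors on cells was applied here. Libraries held 73665012 to 117527749 UMIs over 2726 to 5509 barcodes.

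Cells were selected, scored and summed per library as the report states. Sums were tested with edgeR 4.0.16 (TMM, filterByExpr, glmQLFit, glmQLFTest, Benjamini-Hochberg over all genes tested; R 4.3.3), with DESeq2 1.42.0 as an alternative; shares were tested with an exact permutation test (scipy 1.17.1). edgeR was tested on simulated counts with 200 changed genes. Members, gene lists and tests were chosen with earlier results of these data known, so no list is independent support. Counts of the 2 replicates disagreed beyond what sampling gives, with a chi-square of 6.25 per degree of freedom in Pax7Cre and 9.76 in miR-501KO, so both were kept. The labels number the runs, which were independent experiments shared by both genotypes; run 1 minus run 2 correlated between genotypes at 0.0975 over 9498 genes, and the blocked fit is given where it changed a count.

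Genes were named by a rule: the score genes; genes of the fixed lists; among genes at 20 or more CPM in members, the 20 highest and 10 lowest against the other progenitors and the 10 highest and lowest against S and G2/M, ranked by the least extreme library; and the 5 smallest p-values between genotypes. Genes called only with the block or in myogenic members were named after their values were seen. Some genes that the rule names are not reported here.

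Alternatives were other score cuts, thinning each cell to 5000 UMIs, other limits on cells, other normalization and filters, the run as block and leaving out each library. Added after seeing the data were members that are myogenic by marker and leaving out libraries in the interaction.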

Additional observations from a re-analysis of the deposited data

How the results depend on the processing

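The share difference kept its sign under 9 other choices of cells, at -1.53 to -0.67 points. At the reported cut it reversed within run 2 (0.509, replicate block), though not with the top 5% of each score (-1.43 in run 2). With 1 library removed at a time at the reported cut, it lay between -2.18 and 0.222, miR-501KO replicate 1 giving 0.222. Genotype calls in members, 0 as reported, were 10 with the replicate block, 91 without a filter on low counts, 2 with DESeq2, 1 with the top 5% of each score, 1 with the top 10% taken within each library, 2 without the 5% of cells with most UMIs, and 3 in myogenic-marker members with the block; leaving out each library gave 2 to 86, where the lone library of a group is assumed to vary like the other group. The remaining 6 alternatives gave 0. Interaction calls were 48 without a filter on low counts and 0 to 5 after leaving out single libraries. For these changes the cause was not tested. Log2 fold changes of Procr ran from -3.26 to 5.80, of Apod from -1.28 to 2.90 and of Clcn5 from -0.11 to 0.19 with 1 library removed at a time. Among named genes and lists against the other progenitors, 437 of 495 recomputed ratios moved by less than 1 SD over libraries and none reversed. Of the 58 that moved, 29 did so with the top 5% of each score. Leaving out 1 of 4 libraries cannot move a gene's mean by 1 SD of those libraries, so those ratios were bound to count as unmoved. Nor could it reverse a named gene, as each was chosen by its least extreme library. A list counted as reversed only where its median had 1 sign in all 4 libraries. At the depth and spread of these 2 libraries per group, 47% of simulated 2-fold changes were recovered in members; other depths were not simulated.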

Other observations

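Genes that copy chromatin and DNA methylation were higher in members than in the other progenitors in 12 of 19 measured, at a median log2 ratio of 0.91 ± 0.0341 (SD over libraries, n = 4). Dnmt1, the maintenance methyltransferase recruited by Uhrf1, had 166, 208, 164 and 149 CPM in members beside a mean of 41.0. The de novo enzyme Dnmt3a (36.6, 52.5, 44.9 and 40.9 beside 35.8) and the demethylating dioxygenase Tet2 (29.2, 31.3, 40.1 and 30.1 beside 42.8) did not share in this. Of 16 measured p53 target genes, 10 were lower in each library, beside 33.8% of all 9557 genes, and 1 by the 1.5-fold rule; Gadd45a had 76.9, 105, 73.2 and 91.5 beside a mean of 144. None of the 20 genes of the matrix-high activated state passed the rule, and 11 were lower in each library (33.8% of all genes). Shares near those of all genes were found for immediate early genes, with 6 of 16 lower in each library (33.8% of all genes), and for interferon genes, with 1 of 15 measured higher by the rule (5.67% of all genes).

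Between genotypes, 27 of 35 ribosome biogenesis genes had a positive log2 fold change in members (median 0.14), beside 5523 of 11003 genes tested. A negative one was found for 26 of 27 DNA repair and checkpoint genes (median -0.23), beside 5480 of all genes tested. Other cell cycle lists leaned the same way, with 32 of 35 fork genes, 39 of 44 genes of G2 and mitosis and 19 of 24 licensing genes negative. In the other progenitors the medians of the fork list (-0.16) and of G2 and mitosis (-0.35) were negative too. None of these genes was called, and genes of a list are not independent replicates.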
